A study of Mus musculus with 8 samples.

Results

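The genes described are 10 core components of the Notch pathway in hepatic stellate cells, liver pericytes that store vitamin A: the receptors Notch1, Notch2, Notch3 and Notch4, the ligands Jag1, Jag2 and Dll4, and the transcriptional targets Hey1, Heyl and Hes1. They were chosen by symbol, each through the probe set that the platform annotation assigns to that symbol alone, and all 10 of 10 were measured, among 19938 genes with such a probe set. Each member had 1 probe set of this kind. For Notch4, 6 further probe sets that the annotation shares between Notch4 and Sympk were not used.

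Notch signalling passes between touching cells. A ligand of the Jagged or Delta-like family on one cell binds a Notch receptor on its neighbour, the receptor is cut first by an ADAM protease and then by gamma-secretase, and the freed intracellular domain enters the nucleus, where it joins the DNA-binding protein RBPJ and Mastermind proteins and switches on Hes and Hey genes, which encode basic helix-loop-helix repressors. In the liver the pathway is known for bile duct formation through Jag1 and Notch2, for the endothelium, where Notch1, Notch4 and Dll4 act, and for mural cells, in which Notch3 is a characteristic receptor.

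The cells came from male Balb/c mice, and their RNA was profiled on Affymetrix whole-transcript gene arrays. The reverted group (4 arrays) came from mice dosed 4 times with the liver toxin CCl4 (carbon tetrachloride, 0.5 µl per g, 2 injections a week), which causes fibrosis, and then left untreated for 45 days. The quiescent group (4 arrays) came from normal mice. In both groups the cells were isolated on a density gradient and by a sort that selects for retinoid autofluorescence, and they were lysed without culture. A general statement of the labels gives the age of all mice as 18 weeks and a group statement gives that of the reverted mice as 16 weeks, and this was not settled. The labels do not say whether an array holds 1 mouse or a pool, so p-values measure only how these samples vary, and that spread may be technical.

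Values are log2 expression values as deposited, and changes are reverted minus quiescent with the standard error (SE) of the limma fit over all genes, n = 4 arrays per group. A gene was called changed at a Benjamini-Hochberg adjusted p under 0.05 over the 19938 genes. By this rule 0.712% of all genes were called, 0.186% as lower and 0.527% as higher in reverted cells. In all, 1 of the 10 Notch members was called, Hey1, which was lower in reverted cells, and 0 were called higher. At an unadjusted p under 0.05 there were 4 of the 10 (Notch1, Notch3, Dll4 and Hey1), against 16% of all genes. The arrays of the groups did not overlap for 3 members, against 8.73% of all genes. Hey1 and Notch1 were lower without overlap, against 4.09% of all genes, and Notch2 was higher without overlap, against 4.64%. The median log2 change of the 10 members was -0.07, and that of all genes was -0.01. The members were chosen with earlier results of these data known, so these counts are a description and no test of the pathway.

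**Figure D1:**
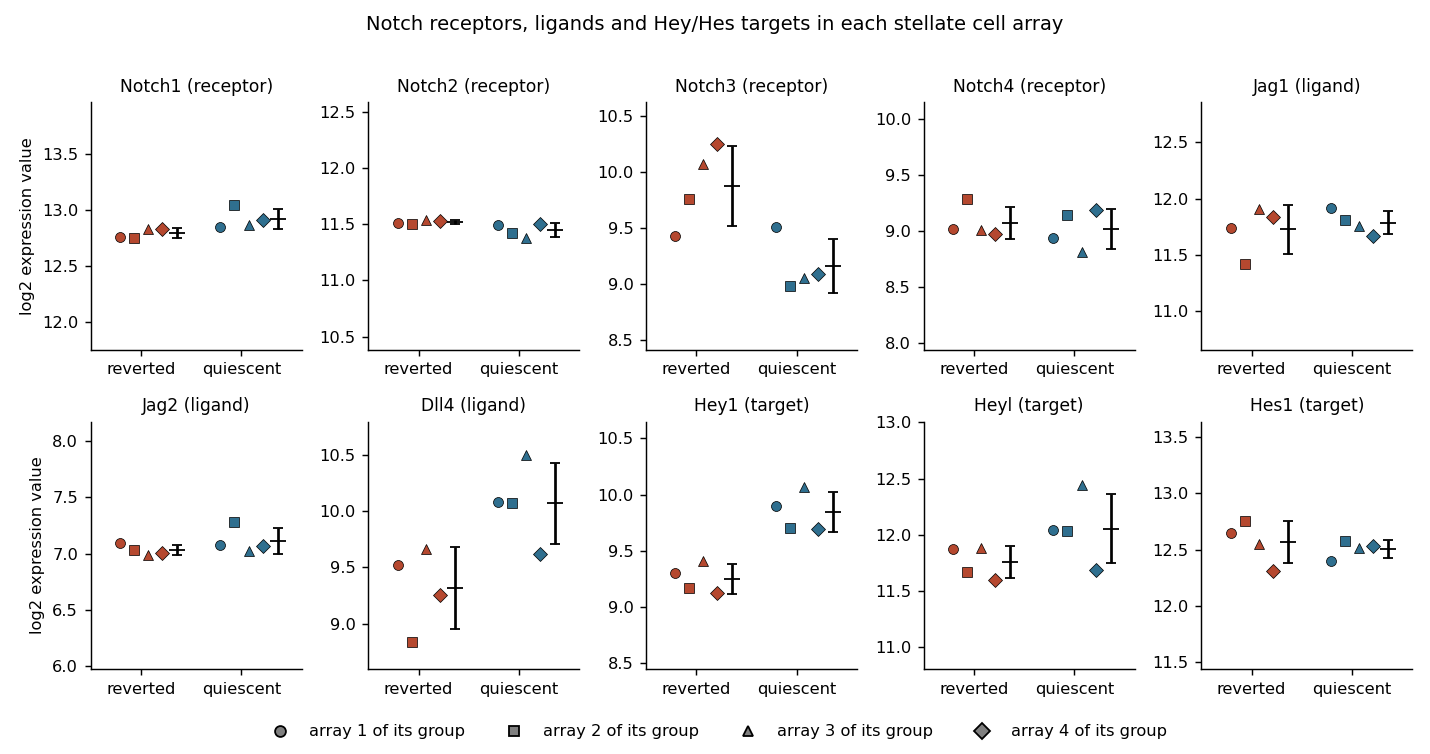
Log2 expression value (y axis, the same span of log2 units in every panel) of each of the 10 genes in the 4 reverted and the 4 quiescent arrays (x axis). Symbols mark array 1 to 4 of a group, and bars give the mean ± SD of the 4 arrays. All 4 reverted arrays lie below all 4 quiescent arrays for Hey1 and, by a small margin, for Notch1. For Notch2 they lie just above them. Dll4 and Notch3 differ by the widest margins but overlap by 1 pair of arrays each. Notch2, Notch4, Jag1, Jag2 and Hes1 lie close to each other in the 2 groups.

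Among the receptors, Notch3 had the widest difference, but it did not pass the test. Notch3 was at 9.43, 9.76, 10.07 and 10.25 in reverted arrays 1 to 4, against 9.51, 8.98, 9.06 and 9.09 in quiescent arrays 1 to 4. The groups overlapped through 1 pair, since quiescent array 1 lay above reverted array 1, while the other 3 reverted arrays lay above every quiescent array. The mean of Notch3 was 9.88 ± 0.36 in reverted and 9.16 ± 0.24 in quiescent cells (SD), a log2 change of 0.71 (SE 0.18) or 1.64-fold, with an adjusted p of 0.118 in limma. Its 95% interval ran from 1.25-fold to 2.16-fold before any correction for the number of genes. Without reverted array 1 the log2 change of Notch3 was 0.86 with an adjusted p of 0.0515 in limma. That was the lowest adjusted p of its 20 alternatives, which ran up to 0.341. The spread among the reverted arrays was wide, with a range of 0.82 log2 units between arrays 1 and 4, against 0.53 in the quiescent group. Work on cultured rat stellate cells has linked Notch3 with activation, which is given as background only.

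Notch1, the receptor best known from T cell and endothelial fate decisions, was at 12.76, 12.75, 12.83 and 12.83 in reverted arrays, against 12.85, 13.04, 12.87 and 12.91 in quiescent arrays. The 4 reverted arrays lay below the 4 quiescent arrays, but by a small margin, with a log2 change of -0.12 (SE 0.05) that did not pass the test (adjusted p = 0.278 in limma). Its probe set stands at level percentile 98.2 of all genes, close to the highest values of the array, where differences may be understated. Notch2, the receptor of bile duct development, lay between 11.503 and 11.538 in reverted arrays and between 11.376 and 11.5005 in quiescent arrays. These ranges did not overlap, though they nearly touched, and the log2 change of Notch2 was 0.07 (SE 0.04, adjusted p = 0.403 in limma), with an interval of 0.99-fold to 1.12-fold. Notch4, a receptor of endothelium, ranged from 8.98 to 9.28 in reverted arrays and from 8.81 to 9.19 in quiescent arrays. Its groups overlapped widely, and its log2 change was 0.05 (SE 0.10, adjusted p = 0.813 in limma), with an interval of 0.89-fold to 1.20-fold.

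Among the ligands, Dll4, known as the ligand of arteries and of endothelial tip cells, had the lowest log2 change of the 10 members. Dll4 was at 9.52, 8.84, 9.67 and 9.26 in reverted arrays 1 to 4, against 10.08, 10.08, 10.50 and 9.62 in quiescent arrays 1 to 4. The groups overlapped through 1 pair, since reverted array 3 lay above quiescent array 4, and the other reverted arrays lay below every quiescent array. The mean of Dll4 was 9.32 ± 0.36 in reverted and 10.07 ± 0.36 in quiescent cells (SD), a log2 change of -0.75 (SE 0.21) or 0.60-fold, which did not pass the test (adjusted p = 0.153 in limma). This estimate was larger in size than that of Hey1, but its SE was 0.21, against 0.09 for Hey1. Without quiescent array 4 the log2 change of Dll4 was -0.90 with an adjusted p of 0.0656, the lowest of its 20 alternatives, which ran up to 0.387.

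The Jagged ligands showed small differences. Jag1, the gene most often mutated in human Alagille syndrome, was at 11.74, 11.42, 11.91 and 11.84 in reverted arrays, against 11.92, 11.81, 11.76 and 11.67 in quiescent arrays. Reverted array 2 was the lowest of the 8, and the other 3 reverted arrays lay within the quiescent range. The log2 change of Jag1 was -0.06 (SE 0.10, adjusted p = 0.781 in limma), with an interval of 0.82-fold to 1.12-fold. Jag2, a second Jagged ligand, lay between 6.99 and 7.09 in reverted and between 7.02 and 7.29 in quiescent arrays, and its log2 change was -0.09 (SE 0.06, adjusted p = 0.491 in limma), or -0.03 without quiescent array 2. Its probe set stands at level percentile 35.3, and changes of such dim genes may be understated.

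The promoters of the receptor and the ligand with the widest differences, Notch3 and Dll4, are shown as the 250 bases before the gene start, 5′ to 3′ on the gene's strand, from RefSeq on GRCm38.p6. The Notch3 window is chr17:32166891-32167140 on the minus strand and the Dll4 window is chr2:119325534-119325783 on the plus strand. Capitals mark the letters CACGCG, a class C site of the kind that Hes and Hey proteins bind, and the Notch3 window holds none.
Notch3: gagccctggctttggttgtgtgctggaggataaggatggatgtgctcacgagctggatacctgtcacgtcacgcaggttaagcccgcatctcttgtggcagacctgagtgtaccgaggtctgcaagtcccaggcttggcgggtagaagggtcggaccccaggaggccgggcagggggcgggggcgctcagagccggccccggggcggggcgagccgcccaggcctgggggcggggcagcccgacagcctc
Dll4: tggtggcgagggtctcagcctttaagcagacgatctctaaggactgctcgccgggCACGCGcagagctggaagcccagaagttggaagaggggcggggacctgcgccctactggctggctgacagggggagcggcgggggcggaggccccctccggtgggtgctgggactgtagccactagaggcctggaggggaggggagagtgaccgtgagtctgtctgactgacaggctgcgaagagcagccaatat

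Promoter windows were at hand for 7 of the 10 members (the 4 receptors and the 3 ligands), and each was searched on both strands. The core of the RBPJ motif, TGGGAA, was in 0 of the 7 windows, against 21.6% of the 32851 windows of this length in the table. The longer RBPJ core GTGGGAA, which contains the shorter one, was in 0 of the 7, against 5.42% of all windows. The class C letters CACGCG were in 3 of the 7 (Notch2, Jag1 and Dll4), against 7.62% of all windows, and in Dll4 the match begins 195 bases before the start. The class B letters CACGTG were in 0 of the 7, against 6.02% of all windows. G and C made up 57.2% (Jag1) to 87.2% (Jag2) of the bases in the 7 windows. The shares of all windows were not matched for base composition, so no excess or lack of a motif can be read from them. These matches describe letters in the windows and do not show that a protein binds there.

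Among the targets, Hey1 fell and was the only member called in either direction. Hey1 was at 9.30, 9.17, 9.41 and 9.12 in reverted arrays 1 to 4, against 9.90, 9.70, 10.07 and 9.70 in quiescent arrays 1 to 4. The highest reverted array lay below the lowest quiescent array, so the groups did not overlap, and the range within a group was 0.29 log2 units in reverted and 0.37 in quiescent arrays. The mean of Hey1 was 9.25 ± 0.13 in reverted and 9.84 ± 0.18 in quiescent cells (SD), a log2 change of -0.59 (SE 0.09) or 0.66-fold, with an adjusted p of 0.0273 in limma. Its 95% interval ran from 0.57-fold to 0.77-fold. In a bulk preparation fewer cells expressing a gene and less RNA per cell cannot be told apart.

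The call of Hey1 changed with the arrays and covariates used. It was lost without reverted array 1 (adjusted p = 0.055), 2 (0.0772) or 4 (0.0981) or without quiescent array 1 (0.0875), with log2 changes between -0.61 and -0.55. It was also lost in limma when all 35556 probe sets were tested in place of 1 per gene (adjusted p = 0.0748). Quiescent array 4 stood apart from its group on the leading principal component of all genes (35.3% of the variance), at -0.21, with the reverted arrays at 6.07 to 11.5 and the other quiescent arrays at -14.0 to -8.79. Without this array the call of Hey1 held (adjusted p = 0.0305, log2 change -0.64). With the mean of endothelial markers, of hepatocyte markers or of immediate early genes as a covariate the adjusted p in limma was 0.0995, 0.0873 or 0.117. The log2 changes of Hey1 in these fits were -0.57, -0.63 and -0.54.

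Heyl, the Hey family member that marks mural cells, did not pass the test. Heyl was at 11.87, 11.67, 11.89 and 11.59 in reverted arrays 1 to 4, against 12.05, 12.04, 12.44 and 11.69 in quiescent arrays 1 to 4. The overlap came from quiescent array 4, and all 4 reverted arrays lay below the other 3 quiescent arrays. The log2 change of Heyl was -0.30 (SE 0.14), or 0.81-fold with an interval of 0.65-fold to 1.01-fold, and its adjusted p was 0.337 in limma. Its estimate moved with the quiescent arrays, to -0.42 without array 4 (adjusted p = 0.103) and to -0.17 without array 3 (0.462), and it was -0.14 with the immediate early gene covariate (0.677). Hes1, a repressor that many other signals also induce, was at 12.65, 12.76, 12.55 and 12.31 in reverted arrays, against 12.40, 12.58, 12.52 and 12.53 in quiescent arrays. The reverted arrays of Hes1 lay on both sides of the quiescent ones, and its log2 change of 0.06 (SE 0.09, adjusted p = 0.746 in limma) had an interval of 0.91-fold to 1.20-fold. The Hes1 probe set stands at level percentile 97.2, where differences may be understated.

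Within the groups, Dll4, Hey1 and Heyl ordered the arrays in part alike. Quiescent array 3 was the highest of the 8 for each of these 3 genes, and quiescent array 4 was the lowest quiescent array for each. Among the reverted arrays, array 3 was the highest for each of the 3 genes. Notch3 did not follow this order, with quiescent array 1 and reverted array 4 the highest of their groups. With 8 arrays these orders are a description.

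**Figure D2:**
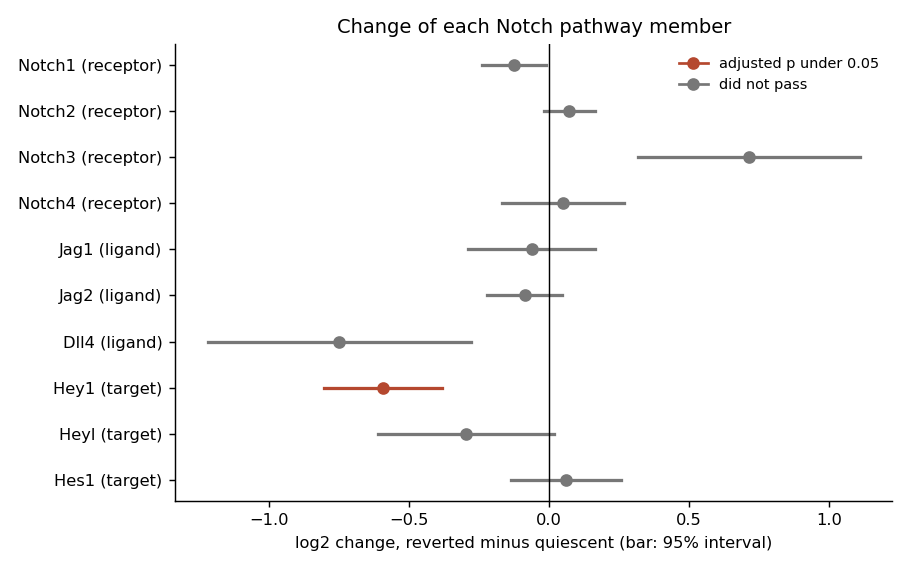
Log2 change of each member (x axis, reverted minus quiescent) with its 95% interval from the limma fit, not corrected for the number of genes, for the genes listed on the y axis. Hey1 at -0.59 is the only red point, the 1 gene past an adjusted p of 0.05, while Dll4 at -0.75 and Notch3 at 0.71 have wider intervals and did not pass.

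Other genes of the pathway were taken from 5 lists by role, with 63 of 66 entries measured. In limma 0 of the 63 were called higher and 0 lower, and 5 had an unadjusted p under 0.05, against 16% of all genes. Their median log2 change was -0.01, the same as that of all genes, with 28 above and 35 below 0. The arrays did not overlap for 3 of the 63, against 8.73% of all genes, with Neurl1b higher and Dll1 and Pofut1 lower.

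Of the 8 other Hes and Hey family and feedback genes, 0 passed, 2 lay above and 6 below 0, and the median log2 change was -0.06. Hey2, the third Hey gene, was at 9.89, 9.75, 10.02 and 10.17 in reverted arrays, against 10.65, 10.16, 10.21 and 10.12 in quiescent arrays. Reverted array 4 lay within the quiescent range, and the log2 change of Hey2 was -0.33 (SE 0.13, adjusted p = 0.259 in limma). Hes5, a Notch target of neural progenitors, had a log2 change of -0.12 (adjusted p = 0.46 in limma). The feedback inhibitor Nrarp, which is induced by Notch and destabilises its intracellular domain, had a log2 change of 0.01 (adjusted p = 0.966 in limma) and was picked out after its value was seen.

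Of the 14 genes of endocytosis and turnover, 0 passed, with a median log2 change of -0.04. Neurl1b, a ubiquitin ligase of the Neuralized family that acts on Notch ligands, was at 9.87, 9.41, 9.66 and 9.54 in reverted arrays, against 9.23, 8.97, 9.28 and 9.33 in quiescent arrays. Every reverted array lay above every quiescent array, and the log2 change of Neurl1b was 0.42 (SE 0.11), short of the threshold (adjusted p = 0.131 in limma). Neurl1a, its paralogue, had a log2 change of -0.12 (adjusted p = 0.453 in limma).

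The lists of genes that act between ligand and target had median log2 changes near 0. Of 14 genes of receptor glycosylation and cleavage 0 passed, and their log2 changes lay between -0.07 and 0.12, with a median of 0.01. Aph1c, a gamma-secretase subunit, had a log2 change of 0.12 (adjusted p = 0.313 in limma), and Pofut1, the enzyme that adds O-fucose to Notch receptors, one of -0.07 (adjusted p = 0.382 in limma). Of 18 genes of the nuclear complex and its co-repressors 0 passed, with a median of 0.02. The Groucho family co-repressors Tle3 and Tle4 had the smallest p of this list, with log2 changes of -0.17 (adjusted p = 0.179) and 0.23 (adjusted p = 0.19 in limma). Of 9 other ligands and ligand-like proteins 0 passed, with a median of -0.04. Dll1, a further Delta-like ligand, had a log2 change of -0.06 (adjusted p = 0.39 in limma), and Dlk2, a Delta-like protein without the receptor-binding DSL domain, one of -0.13 (adjusted p = 0.443 in limma).

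**Figure D3:**
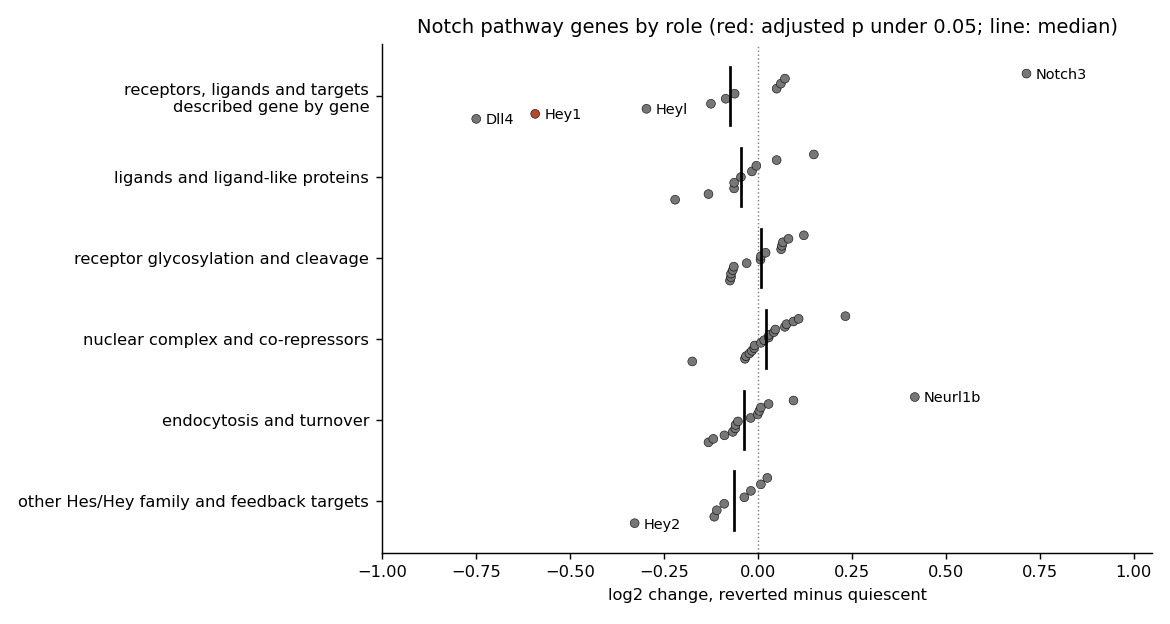
Log2 change (x axis, reverted minus quiescent) of the 10 genes described one by one and of the 63 other pathway genes in 5 lists by role (y axis), with 1 point per gene and a line at each median. Hey1 is the only red point (adjusted p under 0.05), the medians lie between -0.07 and 0.02, and the genes farthest from 0 are named (Dll4, Hey1, Heyl, Notch3, Hey2 and Neurl1b).

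The label of the cells was checked against 14 stellate markers, of which Gfap stood at level percentile 62.3 and the other 13 at 96.5 or higher. Their mean log2 level was 13.26 to 13.32 in reverted arrays, against 13.35 to 13.41 in quiescent arrays, without overlap. Of these markers Gfap was called lower (-0.49, adjusted p = 0.0182 in limma) and 0 were called higher. In all, 4 of the 14 had an unadjusted p under 0.05, against 16% of all genes, the share to set beside each list below. All 14 lay below 0, and 4 were lower without overlap of the arrays, against 4.09% of all genes. Dcn and Ecm1 stood at 14.43 and 14.37 in reverted and at 14.48 and 14.42 in quiescent cells. Both are close to the highest values of the array, where differences may be understated. Several of the Notch members are also expressed by endothelium, and 0 of 20 endothelial markers were called in either direction in limma (2 at an unadjusted p under 0.05). The endothelial mean ran from 8.28 to 8.72 in reverted and from 8.17 to 8.52 in quiescent arrays, a shift of 0.13, with 14 above and 6 below 0. With that mean as a covariate the log2 change of Dll4 was -0.83 (adjusted p = 0.246 in limma), and the part of endothelial cells in the results for Dll4 and Hey1 was not tested further. In limma, Clec4g (0.50, adjusted p = 0.063) and Eng (-0.01, adjusted p = 0.913) had the highest levels of that list. Their means were 12.38 and 14.01 in reverted and 11.88 and 14.02 in quiescent cells, far above the list mean. Which cells gave these 2 signals was not tested.

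Of 11 vascular smooth muscle markers 0 were called in limma (3 at an unadjusted p under 0.05), and their mean ran from 8.79 to 8.98 in reverted and from 8.69 to 8.85 in quiescent arrays. Of these, 5 lay above and 6 below 0, with a median of -0.02. Rgs5 and Smtn had the highest levels of this list, with log2 changes of -0.05 and -0.08. Their means were 13.86 and 12.72 in reverted and 13.91 and 12.8 in quiescent cells, far above the list mean, and which cells gave these signals was not tested. Tagln (0.66, adjusted p = 0.272) and Acta2 (0.50, adjusted p = 0.188 in limma), picked out after their values were seen, had the highest log2 changes of this list. Which cells gave the signals of Tagln and Acta2 was not tested either. The part of smooth muscle cells in the Notch3 difference was not tested. In the list of mesothelium and portal fibroblasts, 2 of 13 markers were called higher, Dpt (1.69) and Wt1 (1.39), 0 were called lower, and Eln had a log2 change of -0.34 (adjusted p = 0.118 in limma). Of the 13 markers 4 lay above and 9 below 0, with a median log2 change of -0.09. In all, 5 had an unadjusted p under 0.05, against 16% of all genes. The mean of the list ran from 7.76 to 7.999 in reverted and from 7.62 to 7.67 in quiescent arrays, a shift of 0.20 in which Dpt, Wt1 and Cd34 (0.60, adjusted p = 0.0631 in limma, picked out after its value was seen) had the highest log2 changes. The part of these cells in the Notch3 difference was not tested. Of 14 hepatocyte markers Hp was called higher (0.80) and Trf lower (-0.27), and Alb had a log2 change of 0.55 (adjusted p = 0.417 in limma). Of the 14, 12 lay above and 2 below 0, with a median log2 change of 0.42, and 7 had an unadjusted p under 0.05, against 16% of all genes. The hepatocyte mean ran from 8.86 to 9.34 in reverted and from 8.22 to 9.17 in quiescent arrays, a shift of 0.44, and its part in the results was not tested beyond the covariate fit.

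The lists of Kupffer and myeloid cells (11 markers), cholangiocytes (8) and lymphocytes and granulocytes (8) had 0 calls in limma, with 1, 1 and 0 markers at an unadjusted p under 0.05. The cholangiocyte mean ran from 6.83 to 6.86 in reverted and from 6.77 to 6.96 in quiescent arrays. Sox9 and Cldn4, the markers with the highest levels there, had log2 changes of -0.08 and -0.13. Sox9 stood at level percentile 43.4 and Jag1 at 92.8, and the part of these cells in the Jag1 values was not tested. The other lists had means of 6.90 to 7.02 (Kupffer and myeloid) and 6.86 to 6.97 (lymphocyte and granulocyte) in reverted arrays, against 6.85 to 6.98 and 6.85 to 7.05 in quiescent arrays. Their markers with the highest levels had log2 changes of 0.38 (Cd68), 0.07 (C1qb), 0.27 (Cd3e) and -0.12 (S100a9). Of 20 immediate early genes, which respond to cell handling, 0 were called in limma (2 at an unadjusted p under 0.05), and their mean ran from 12.71 to 12.84 in reverted and from 12.54 to 12.80 in quiescent arrays. Of these, 14 lay above and 6 below 0, with a median of 0.05. Dusp1 and Fosb had the highest levels there, with log2 changes of 0.05 and -0.01. Their levels are close to the highest of the array, where differences may be understated. In every reverted array Myc (0.70, adjusted p = 0.082) and Klf6 (0.30, adjusted p = 0.141 in limma), picked out after their values were seen, lay above every quiescent array. These were 2 of the 20 genes, against 4.64% of all genes, and 0 of the 20 were lower without overlap.

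The genes whose deviations from their group means over the 8 arrays were most like those of Hey1 were Olfr1006, Cxcr4, Ccnjl, Cited2 and Rps3a1, with Pearson coefficients between 0.947 and 0.963. For Notch3 they were Arhgap5, Cpne8, Cnot6l, Ap5b1 and Sipa1l2, with coefficients between 0.948 and 0.968. These are the highest of 19938 genes over 8 arrays that share a normalization, and they are given as a description.

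**Figure D4:**
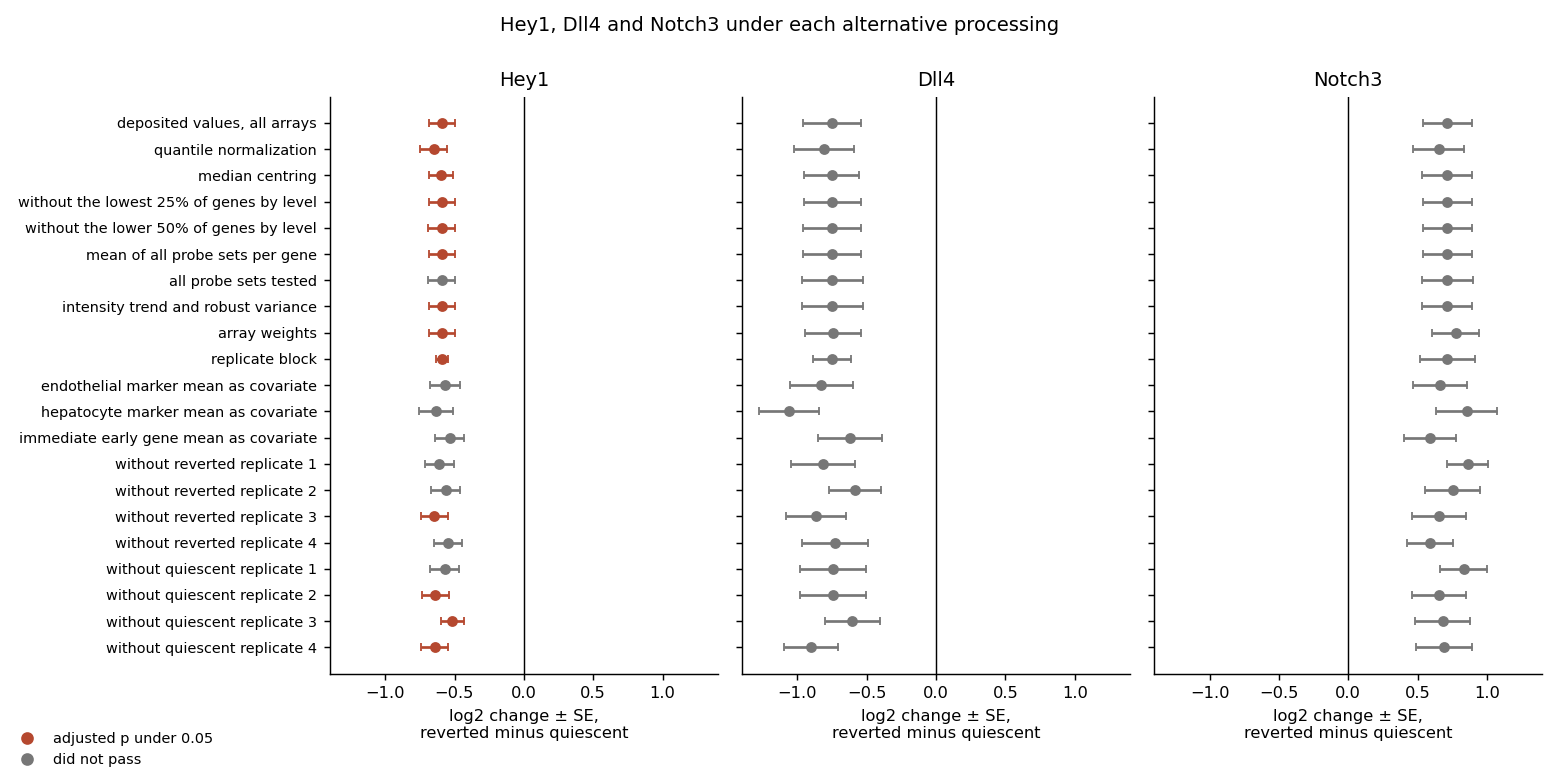
Log2 change ± SE (x axis, reverted minus quiescent) of Hey1, Dll4 and Notch3 with the deposited values and under 20 alternatives (y axis). Red points had an adjusted p under 0.05. Hey1 stays between -0.65 and -0.52 and passes in 12 of the 20 alternatives, while Dll4 (-1.06 to -0.59) and Notch3 (0.59 to 0.86) keep their direction and pass in none.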

How the data were processed

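The authors deposited log2 values for 35556 probe sets and 8 arrays, made with RMA per the submitters' processing notes. Neither RMA settings nor a genome build is given in the sources used here. The number of arrays limits the precision.

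Columns were matched to samples by accession, with 0 columns left over. Of the probe sets, 21789 carry 1 gene symbol, 1621 carry several and 12146 are not listed. Gene identifiers of 21698 were found in RefSeq (GRCm38.p6, names only), and 0 symbols changed. Where a gene had several probe sets (999 genes), that with the highest mean was used, leaving 19938 genes with no filter. The groups were compared in limma 3.58.1 (R 4.3.3; lmFit, eBayes), 2-sided, without covariates, with Benjamini-Hochberg adjustment over all genes. The limma step was also run on simulated data with independent noise for each gene. That run checks the code and does not show how reliable the calls are in these data. Tables and plots used Python 3.11.15, pandas 2.3.3 and matplotlib 3.10.9.

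The 10 members and all lists were chosen with earlier results of these data known. The text names every member, and of each pathway list the called genes and the 2 with the smallest p. Of each marker list it names the called genes and the 2 with the highest level, and it names the 5 genes most like each of Hey1 and Notch3. Outside this rule, Nrarp, Tagln, Acta2, Cd34, Myc and Klf6 were picked out after their values were seen. The alternatives were 2 normalizations, 2 filters on dim genes, 2 ways to treat probe sets, a variance trend, array weights, the replicate number as a block, 3 covariates and leaving out each of the 8 arrays. Same-numbered arrays did not deviate together (correlations of deviations between -0.15 and 0.08).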

Additional observations from a re-analysis of the deposited data

Results flagged for a closer look

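For Notch4, reverted array 2 stood apart from the other 3 reverted arrays, at 9.28, against 8.98 to 9.02 in those arrays. The gap was 0.867 of the range of the 4 reverted arrays, above Dixon's critical value for 4 values. Without this array the log2 change of Notch4 was -0.020, against 0.05 with it. In all, 20 groups (10 genes in 2 groups) were examined, and chance flags about 1 in 20.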

How the results depend on the processing

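The number of members called lower was 1 as reported and 0 in 8 of the 20 alternatives: with all probe sets tested, with the endothelial, hepatocyte or immediate early gene covariate, or without reverted array 1, 2 or 4 or quiescent array 1. With each array left out in turn it ran from 0 to 1. With all 35556 probe sets tested, the adjusted p of Hey1 was 0.0748 at the same log2 change of -0.59. The numbers of members called higher and of other pathway genes called in either direction were 0 in each of the 20 alternatives. Of 199 values of single members under an alternative, 186 kept their direction and side of the threshold, 8 lost the call (all of Hey1) and 5 changed sign. The sign changes were those of Hes1 (-0.0011) and Jag1 (0.040) without reverted array 2, and of Notch4 after quantile normalization (-0.0088) and without reverted array 2 (-0.020) or quiescent array 3 (-0.0196), and the cause was not tested. Over the fits that leave out 1 array, the log2 change ran from -0.0011 to 0.15 for Hes1, from -0.12 to 0.040 for Jag1 and from -0.020 to 0.11 for Notch4. It ran from -0.42 to -0.17 for Heyl, from -0.12 to -0.03 for Jag2, from -0.15 to -0.08 for Notch1 and from 0.05 to 0.09 for Notch2. The filter that drops the lower 50% of genes left out Jag2, so that it gives no value there. With the replicate block Hey1 had an adjusted p of 0.0106, and the count of members called was 1. The number of all genes called was 63 with the replicate block, against 142 without it, and from 54 to 247 with each array left out. It was 219 after quantile normalization, 306 with array weights, and 56, 72 and 60 with the endothelial, hepatocyte and immediate early gene covariates. With all probe sets tested it was 57 of the 19938 chosen ones.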
